A study of Mus musculus with 13 samples.

Results

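Calcium that enters a neuron is read by calmodulin, and the calmodulin-activated kinases and the phosphatase calcineurin turn that signal into added or removed phosphate groups. CaMKII is built from α, β, δ and γ subunits and is an abundant enzyme of the postsynaptic density, where its activity is tied to synaptic strengthening. CAMKK2 lies upstream of the nuclear kinase CaMK4, and calcineurin, an enzyme of a catalytic A subunit and a calcium-binding B subunit, is tied to synaptic weakening and to endocytosis of receptors and vesicles.

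The 9 genes described here encode these enzymes: Camk2a, Camk2b, Camk2d and Camk2g (CaMKII α, β, δ and γ), Camk4, its activator Camkk2, the catalytic calcineurin subunits Ppp3ca and Ppp3cb, and the regulatory subunit Ppp3r1. They were chosen by name, and their symbols matched 9 of the 55291 gene symbols of the count files. RNA was sequenced from CA1 regions cut out of organotypic entorhino-hippocampal slice cultures of wildtype C57BL/6 mice, prepared at postnatal day 4 to 5 and matured in vitro for 18 days or more. The groups held 5 cultures without a lesion (control), 4 with a Schaffer collateral lesion (SCL), which severs the input from CA3 to CA1, and 4 with an entorhinal cortex lesion (ECL), which severs the perforant path, each isolated 3 days after the lesion. Each library came from 1 culture, and by the column headings 3 of the 5 controls, 3 of the 4 SCL cultures and 1 of the 4 ECL cultures were female. All 3 groups shared genotype and culture conditions, and the numbers in the titles marked biological replicates, without stating whether cultures came from separate animals, so the p-values measure the spread between cultures.

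Total counts lay between 14371152 and 21092612 in the controls, 16405517 and 56786613 after SCL, and 20210165 and 46449937 after ECL. The submitters' titles name CA1 tissue while their protocol text speaks of the dentate gyrus. All 6 CA1 pyramidal markers were detected, with a summed level of 332 to 419 CPM (counts scaled to the same library total) in the controls, and 3 of 5 granule cell markers of the dentate gyrus were below 1 CPM on average, with a summed level of 12.1 to 24.3 CPM over the 13 libraries. The summed levels of 8 neuronal markers overlapped between groups (4010 to 5170 CPM in controls, 3560 to 4780 after SCL, 3410 to 5010 after ECL). Those of 8 microglial markers did not overlap with control, at 264 to 345 CPM in controls, 561 to 1200 CPM after SCL and 493 to 858 CPM after ECL. The share of counts on mitochondrial genes was 6.07 to 7.96% in controls, 3.42 to 4.26% after SCL and 4.1 to 5.38% after ECL.

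Promoter sequences from RefSeq (build GRCm38.p6) matched 5 of the 9 genes: Camk2b, Camk2d, Camkk2, Ppp3cb and Ppp3r1. Ppp3r1, a calcineurin subunit gene, was called lower after both lesions, close to the threshold, and Ppp3cb did not pass the test. Their upstream windows are shown side by side, each read on the gene's strand from 250 to 36 bases before the start that RefSeq gives. GENCODE places the start of Ppp3r1 further upstream, at the base after the end of this window, and no annotated exon is included. The capitals mark TGACG or its reverse complement, the half-site of the cAMP response element to which CREB, a target of CaMK4, binds.
Ppp3r1, chr11:17159048-17159262, plus strand: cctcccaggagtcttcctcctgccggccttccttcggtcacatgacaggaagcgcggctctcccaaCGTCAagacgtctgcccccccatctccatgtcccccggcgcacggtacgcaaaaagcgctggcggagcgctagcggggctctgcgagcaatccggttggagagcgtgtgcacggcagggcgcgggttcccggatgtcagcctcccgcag
Ppp3cb, chr14:20546609-20546823, minus strand: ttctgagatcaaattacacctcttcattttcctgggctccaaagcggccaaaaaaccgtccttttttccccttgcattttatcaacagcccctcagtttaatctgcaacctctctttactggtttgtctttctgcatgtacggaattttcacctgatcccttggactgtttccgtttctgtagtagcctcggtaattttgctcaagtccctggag
The Ppp3r1 window held 1 match to TGACG on either strand, and the same window of Camk2b, Camk2d, Camkk2 and Ppp3cb held 0. Of the 32851 windows of the same length in the table, 14.4% held TGACG. The full element TGACGTCA, which contains the half-site, was in none of the 5 windows and in 1.1% of all. A match of letters is a description and not a binding site.

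The catalytic calcineurin subunit Ppp3ca and the regulatory subunit Ppp3r1 were called lower than control after both lesions. The calls of Ppp3r1 lay close to the threshold and were lost in 10 (SCL) and 11 (ECL) of 19 alternative settings. No CaMKII subunit, Camk4, Camkk2 or Ppp3cb passed the test in either comparison. All 9 genes reached the mean count minimum of 150 and were tested with edgeR's quasi-likelihood test, with Benjamini-Hochberg adjustment over all genes tested. After SCL, 2 of 9 passed at an adjusted p under 0.05, against 24.9% of all 11438 genes tested, and after ECL 2 of 9, against 27.8% of 11212 genes, so the share of the 9 genes was near that of all genes in both comparisons. The called genes were lower in each case, as were 11.8% and 12.5% of all genes tested. Between ECL and SCL, 0 of the 9 and 0% of all 12232 genes were called. In bulk tissue, fewer cells of a type and less RNA per cell cannot be told apart.

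Ppp3ca encodes calcineurin Aα, the main catalytic subunit in forebrain neurons (GRCm38 chr3:136670124-136937727, plus strand). Its level, in CPM on scaled library sizes, was 2330, 2130, 2480, 3660 and 2790 in controls 1 to 5. It was 1610, 1350, 1430 and 1610 in SCL 1 to 4, and 1650, 1820, 1760 and 1520 in ECL 1 to 4. Every lesioned library lay below the lowest control, and control 4 was the highest of all. The fitted log2 fold change was -0.83 ± 0.18 (SE, 95% interval -1.21 to -0.46) after SCL, a fold of 0.561, with an edgeR adjusted p of 0.00637. After ECL it was -0.66 ± 0.17 (interval -1.03 to -0.28), a fold of 0.635, with an edgeR adjusted p of 0.0133. Without ECL replicate 4 the adjusted p for ECL was 0.0515 (edgeR, log2 fold change -0.61). ECL and SCL differed by 0.18 (interval -0.15 to 0.51, edgeR adjusted p = 0.84). Groups without overlap were found for 2 of the 9 genes after SCL, Ppp3ca and Ppp3cb, against 23.7% of all genes tested, and for Ppp3ca alone after ECL, against 25.1%.

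Ppp3r1 encodes calcineurin B, which holds the catalytic subunit in its active form (chr11:17159263-17200375, plus strand). The controls measured 571, 431, 620, 608 and 448 CPM, the SCL libraries 450, 363, 368 and 373 CPM, and the ECL libraries 373, 393, 450 and 340 CPM. The groups overlapped, since controls 2 and 5 were no higher than the highest library of each lesion. The fold was 0.725 after SCL (log2 fold change -0.46 ± 0.15 SE, edgeR adjusted p = 0.0433) and 0.731 after ECL (-0.45 ± 0.16 SE, edgeR adjusted p = 0.0429). Both calls lay close to the threshold. They were lost without controls 1, 3 or 4, SCL replicates 2, 3 or 4, or ECL replicates 1, 2 or 4, where the edgeR adjusted p was 0.0676 to 0.141. Both were also lost with DESeq2 size factors, scaling over all symbols, no filter on low counts or filterByExpr, and the ECL call with sex as a term. Over all settings the edgeR adjusted p reached 0.345 for SCL and 0.313 for ECL. The exons of Ppp3r1 share 14.3% of their bases with Wdr92 on the same strand, and 88.4% of its 100-base stretches were unique among transcripts, so part of its count is uncertain.

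Ppp3cb encodes calcineurin Aβ, the second catalytic isoform in brain (chr14:20499364-20546573, minus strand). Its control levels of 246, 253, 220, 257 and 240 CPM were the least variable of the 9 genes, with a mean ± SD of 243 ± 14.6. The SCL libraries measured 276, 261, 285 and 263 CPM and the ECL libraries 299, 289, 235 and 241 CPM. The SCL libraries lay just above every control, but the fitted change of 0.16 ± 0.11 (SE) did not pass the test (edgeR adjusted p = 0.312), nor did 0.13 ± 0.13 after ECL (edgeR adjusted p = 0.462). The 95% intervals, -0.08 to 0.40 and -0.14 to 0.41, leave out a fall of the size measured for Ppp3ca. With the counts corrected for length and GC content the rise of Ppp3cb passed in both comparisons (edgeR adjusted p = 0.0408 and 0.0459).

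**Figure D1:**
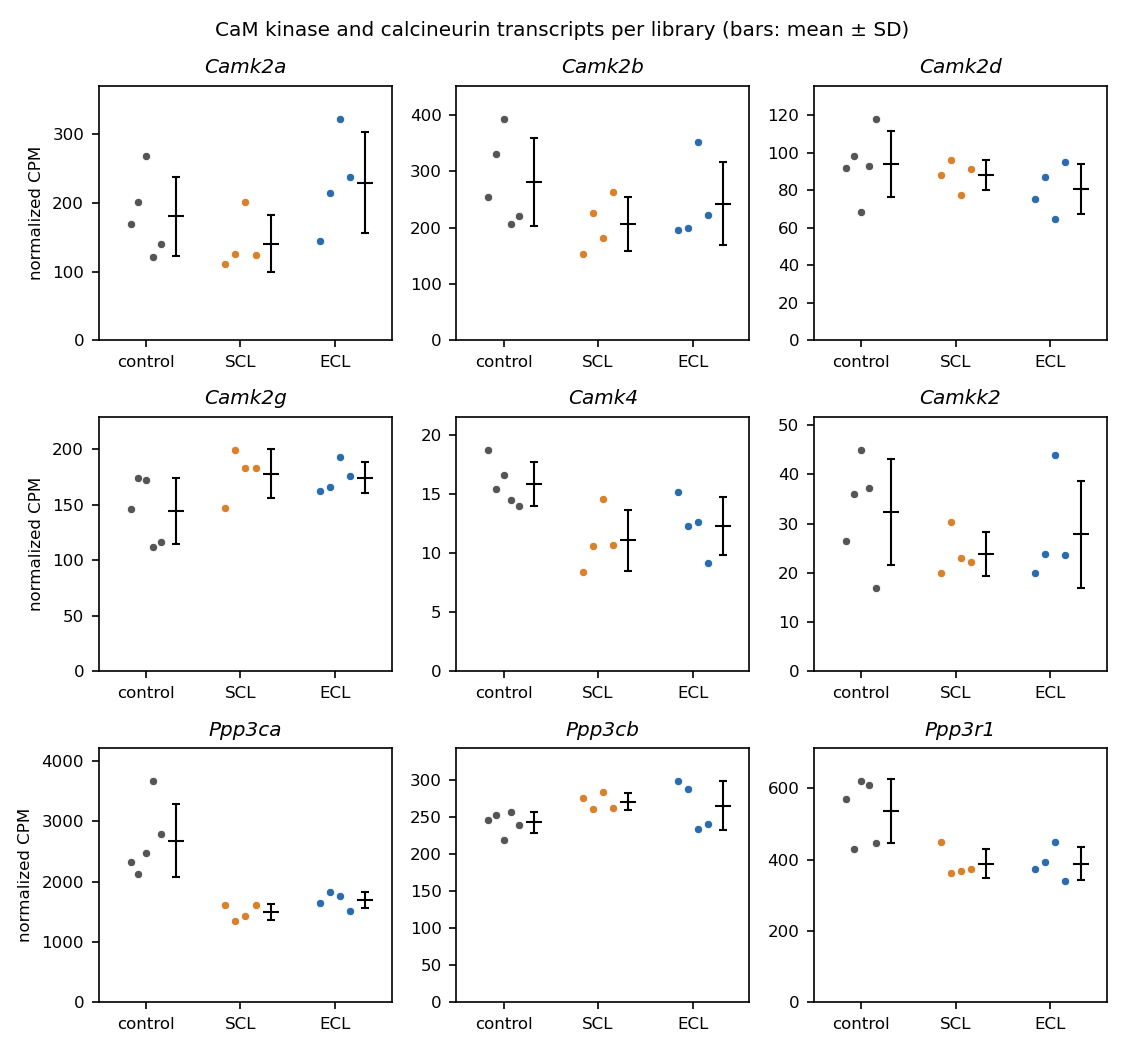
Normalized CPM (vertical axes, from 0, a scale of its own per gene) of each gene in the 5 control, 4 SCL and 4 ECL libraries; points are libraries in replicate order and bars the mean ± SD. All lesioned libraries of Ppp3ca lie between 1350 and 1820 CPM, below the control range of 2130 to 3660 CPM, while the groups of the CaM kinases overlap.

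The ratio of the catalytic isoforms within a library does not depend on library scaling. The log2 ratio of Ppp3cb to Ppp3ca counts was -3.44 ± 0.29 (SD, n = 5) in controls, -2.46 ± 0.14 (n = 4) after SCL and -2.67 ± 0.18 (n = 4) after ECL. Neither lesion group overlapped with control. The difference from control was 0.97 after SCL and 0.76 after ECL, and a two-sided exact permutation test gave p = 0.0159 for each, the smallest that 5 against 4 libraries can give. Adjusted over 12 ratio tests (4 ratios in 3 comparisons), both were 0.0635 in the exact permutation test. Per kilobase of exon, Ppp3cb made up 9.59% of the summed Ppp3ca and Ppp3cb transcripts in controls (7.38 to 11.9%). It made up 17.1% after SCL (15.6 to 18.4%) and 15.1% after ECL (13.1 to 17%). The log2 ratio of Ppp3r1 to the sum of Ppp3ca and Ppp3cb was -2.44 ± 0.29 in controls, -2.19 ± 0.11 after SCL and -2.33 ± 0.13 after ECL. The groups overlapped (exact permutation p = 0.159 and 0.413). Other calcineurin subunit genes were left out of the share and of this ratio.

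**Figure D2:**
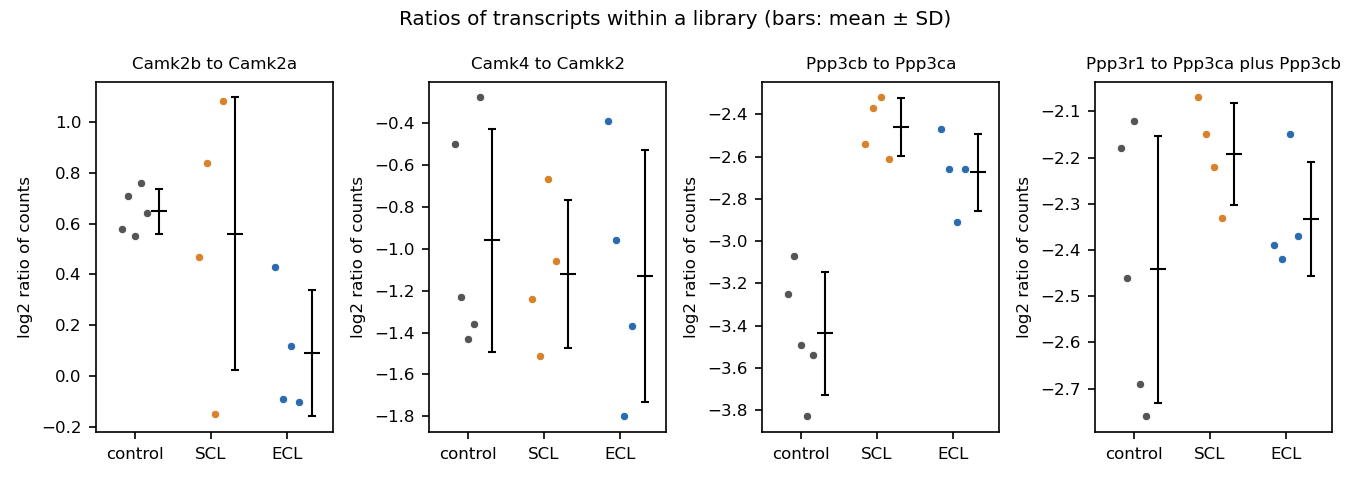
Log2 ratio of counts (vertical axes, a scale of its own per panel) within each library for 4 transcript pairs; points are libraries and bars the mean ± SD of 5 control, 4 SCL and 4 ECL libraries. The Ppp3cb to Ppp3ca ratios of control, -3.83 to -3.07, lie below all lesioned libraries, -2.91 to -2.32.

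The α subunit gene Camk2a, the form enriched in excitatory forebrain neurons (chr18:60925618-60988152, plus strand), measured 170, 202, 268, 122 and 141 CPM in controls. After SCL it was 111, 126, 202 and 124 CPM and after ECL 145, 214, 322 and 238 CPM. The point estimates went in opposite directions, -0.36 ± 0.24 (SE, edgeR adjusted p = 0.278) after SCL and 0.35 ± 0.24 (edgeR adjusted p = 0.294) after ECL, and neither differed from control beyond the spread of cultures. Set directly against SCL, ECL was 0.72 higher on the log2 scale (interval 0.17 to 1.27), at an unadjusted edgeR p of 0.0154 and an adjusted p of 0.584. In that comparison edgeR called 0 of 12232 genes and 897 (7.33%) had an unadjusted p under 0.05, while DESeq2 called 62 genes and none of the 9.

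Camk2b, whose β subunit binds actin filaments (chr11:5969644-6066362, minus strand), measured 254, 330, 392, 207 and 220 CPM in controls, 153, 226, 182 and 263 CPM after SCL and 196, 200, 351 and 222 CPM after ECL. The fitted changes of -0.45 ± 0.22 (SE, edgeR adjusted p = 0.143) and -0.21 ± 0.22 (edgeR adjusted p = 0.517) did not pass. Relative to Camk2a in the same library, however, the groups parted after ECL. The log2 ratio of Camk2b to Camk2a was 0.65 ± 0.09 (SD, n = 5) in controls with a range of 0.55 to 0.76, and 0.09 ± 0.25 (n = 4) after ECL with a range of -0.10 to 0.43. The difference of -0.56 had an exact permutation p of 0.0159, or 0.0635 adjusted over the 12 tests. After SCL the ratio ran from -0.15 to 1.08, wider than in either other group, with a mean difference from control of -0.09 (exact permutation p = 0.746).

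Camk2g, the γ subunit that can carry calmodulin to the nucleus (chr14:20734875-20794088, minus strand), was 146, 174, 172, 112 and 116 CPM in controls, 147, 199, 183 and 183 CPM after SCL and 162, 166, 193 and 176 CPM after ECL. The changes were 0.30 ± 0.17 (SE, edgeR adjusted p = 0.193) and 0.28 ± 0.16 (edgeR adjusted p = 0.196), and 3 of the 5 controls lay below every lesioned library. Without a filter on low counts the SCL change of Camk2g passed (edgeR adjusted p = 0.0462). In that setting scaling also ran over all symbols, and the median change over the 48069 genes tested was -0.4, against 0.01 with the filter. Camk2d, the δ subunit found in many tissues (chr3:126596302-126846326, plus strand), ranged from 68.7 to 118 CPM in controls, 77.5 to 96.4 after SCL and 64.8 to 95.1 after ECL. Its 95% intervals of -0.40 to 0.23 after SCL and -0.57 to 0.15 after ECL both included 0.

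Per kilobase of exon, Camk2b made up 37.5% of the CaMKII transcripts in controls, Camk2a 29.3%, Camk2g 27.8% and Camk2d 5.47%. After SCL Camk2g held 38.1% (36.2 to 40.3%) against 24.6 to 29.3% in controls, and Camk2b 30.7% (25.2 to 36.9%, against 36 to 39.6%). After ECL Camk2a held 34.4% (28 to 37.6%, against 26.9 to 33% in controls) and Camk2b 29.8% (27.3 to 33.5%, against 36 to 39.6%). These shares were not tested, and they sum to a fixed whole, so that a rise of 1 subunit lowers the others. The order of the subunits depends on the length used. With the longest transcript in place of all annotated exons (22.49 kb for Camk2d), Camk2b was the largest part in every group, at 42.1% in controls, 34.9% after SCL and 34.9% after ECL. Camk2g then held 24.3%, 33.8% and 28.8%, Camk2a 22.3%, 19.9% and 27.3%, and Camk2d 11.2%, 11.4% and 9.11%.

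**Figure D3:**
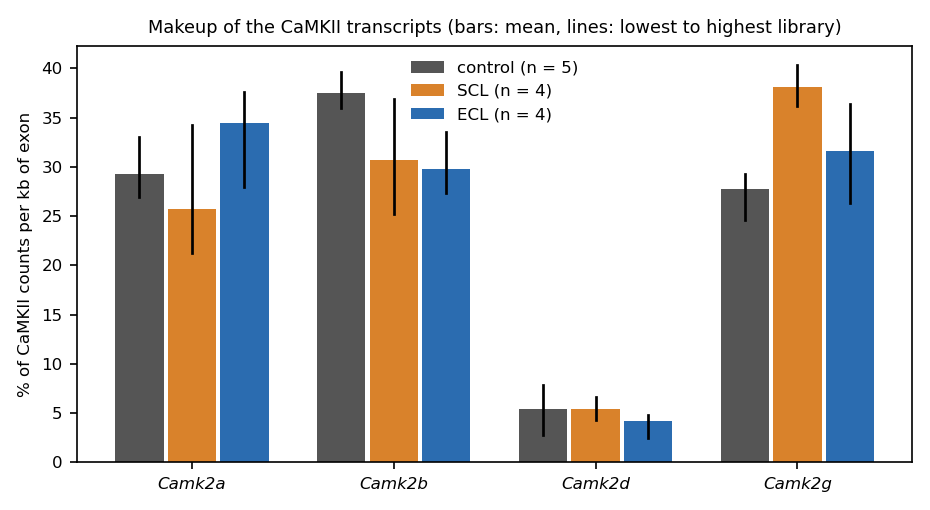
Share of each CaMKII subunit gene (horizontal axis) in the summed CaMKII counts per kilobase of exon (vertical axis, percent, from 0) for control, SCL and ECL; bars are group means and lines run from the lowest to the highest library. The Camk2g share after SCL, 36.2 to 40.3%, lies above the control range of 24.6 to 29.3%.

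Camk4, the nuclear kinase that phosphorylates CREB (chr18:32934931-33191228, plus strand), was the least counted of the 9 genes, with 180 to 672 counts a library. Its levels were 18.7, 15.4, 16.6, 14.5 and 14 CPM in controls, 8.43, 10.6, 14.6 and 10.7 CPM after SCL, and 15.2, 12.3, 12.6 and 9.19 CPM after ECL. Only SCL 3 reached into the control range among the SCL libraries. The change of -0.52 ± 0.21 (SE) after SCL had an edgeR adjusted p of 0.0803, and that of -0.35 ± 0.21 after ECL one of 0.215. DESeq2 and the correction for length and GC content each placed the SCL change past the threshold. The exons of Camk4 overlap those of 2310026I22Rik on the opposite strand over 2.2% of their bases.

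Camkk2, the kinase that activates CaMK4, CaMK1 and AMPK (chr5:122731170-122779409, minus strand), varied most among the controls, at 26.4, 36.1, 44.9, 37.2 and 17 CPM. It was 19.9, 30.3, 23.1 and 22.2 CPM after SCL and 19.9, 23.9, 43.9 and 23.7 CPM after ECL. The changes of -0.44 ± 0.25 (SE, edgeR adjusted p = 0.209) and -0.21 ± 0.28 (edgeR adjusted p = 0.611) did not pass. The log2 ratio of Camk4 to Camkk2 was -0.96 in controls, -1.12 after SCL and -1.13 after ECL, with overlapping groups (exact permutation p = 0.619 and 0.667).

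**Figure D4:**
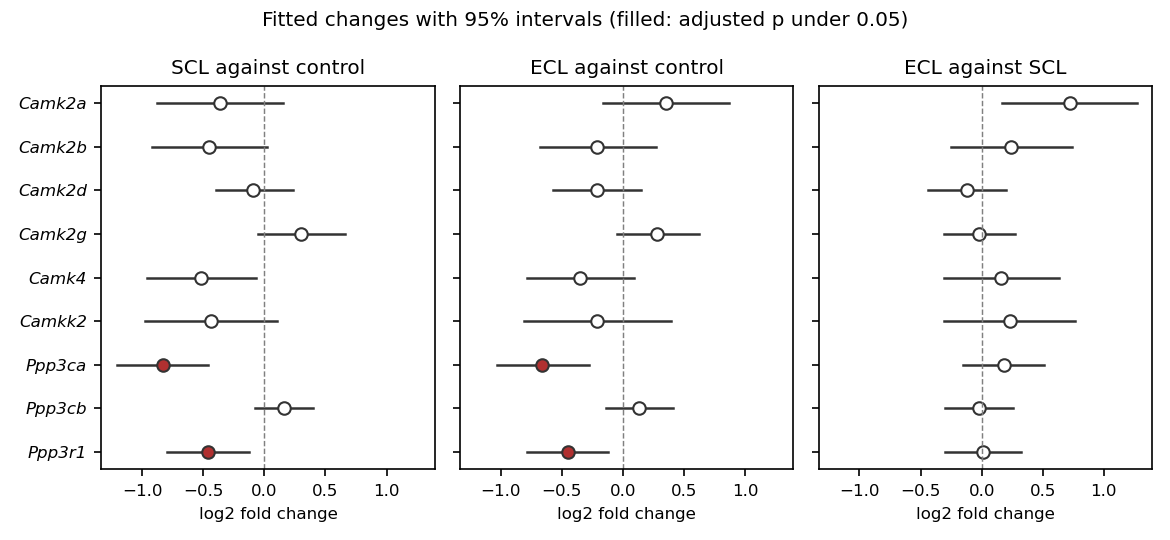
Log2 fold change (horizontal axis) of the 9 genes in 3 comparisons, with 95% intervals as lines and filled points at an edgeR adjusted p under 0.05. Ppp3ca and Ppp3r1 are filled in both lesion comparisons, from -0.83 to -0.45, and no point is filled for ECL against SCL.

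Over the 9 genes the median of the fitted changes was -0.44 (SCL) and -0.21 (ECL) on the log2 scale, against 0.01 and -0.01 for all genes tested, and 7 and 6 of them had a negative estimate. The lesion comparisons share their 5 controls. In controls the order of levels per kilobase of exon was Ppp3ca (268 CPM per kb), Ppp3r1 (166), Camk2b (30.8), Ppp3cb (27.6), Camk2a (24.2), Camk2g (22.5), Camk4 (4.86), Camk2d (4.17) and Camkk2 (2.96). The ranges of Camk2b, Ppp3cb, Camk2a and Camk2g overlapped from each to the next, as did those of Camk4, Camk2d and Camkk2. With the longest transcript as the length, Ppp3ca (563), Ppp3r1 (187), Camk2b (68.1) and Ppp3cb (63.5) kept their places in controls, and the order went on with Camk2g (38.9), Camk2a (36.3), Camk2d (17), Camkk2 (6.65) and Camk4 (5.82), so the order of the lower 5 depends on the length used.

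Values of other cell types stand beside the fall of Ppp3ca. Of 8 neuronal markers, 2 were lower after SCL and 4 after ECL, with medians of -0.18 and -0.29 on the log2 scale. Of all genes tested, 24.9% and 27.8% were called in either direction, and 11.8% and 12.5% were called lower. Relative to the summed neuronal markers of the same library, a scale chosen after the data were seen, Ppp3ca was lower by 0.69 after SCL and 0.50 after ECL with no overlap between groups (exact permutation p = 0.0159 for each, unadjusted). On that scale Ppp3r1 was at -0.32 (p = 0.0317) after SCL and -0.31 (p = 0.159) after ECL by the exact permutation test. The summed level gives most weight to the markers with the most counts. Snap25 was the largest part, with a mean of 1680 CPM in controls, and was not called in either comparison. Estimates of the 8 single markers spanned -0.54 to 0.18 for SCL, where Ppp3ca was at -0.83. For ECL they spanned -0.65 to 0.32, and Ppp3ca was at -0.66. Ppp3ca was not tested against single markers. Of 8 microglial markers, 8 were higher after SCL and 5 after ECL. Of 6 astrocytic markers 3 and 2 were higher, and of 6 oligodendrocyte markers 2 and 2. Of 6 interneuron markers 1 and 2 were lower, of 6 CA1 pyramidal markers 1 and 0, and of 3 CA3 markers tested 0 and 0. Their part in the changes of the calcineurin genes was not tested.

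The other genes of the pathway were taken from 7 lists, chosen with earlier results of these data known, and their counts stand against the 24.9% (SCL) and 27.8% (ECL) of all tested genes that were called. Among 6 calmodulin genes and calmodulin-binding buffers, none passed in either comparison. Calm2, a calmodulin gene, came nearest, at 0.72 ± 0.29 (SE, edgeR adjusted p = 0.0877) after SCL and 0.54 ± 0.22 (edgeR adjusted p = 0.0739) after ECL. Its SCL libraries were far apart, at 11000, 5240, 5460 and 3530 CPM in SCL 1 to 4, against 2510 to 4610 CPM in controls.

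Camk2n1, an inhibitor protein that binds active CaMKII, was 845, 833, 1020, 1040 and 985 CPM in controls, 457, 557, 407 and 475 CPM after SCL and 372, 599, 670 and 512 CPM after ECL. No lesioned library reached the controls, and the folds were 0.502 (log2 fold change -1 ± 0.14 SE, edgeR adjusted p = 0.00156) and 0.573 (-0.80 ± 0.17 SE, edgeR adjusted p = 0.00441). It was the only gene called among 4 inhibitors and phosphatases of CaM kinases. Its paralog Camk2n2 was at -0.53 and -0.35 (edgeR adjusted p = 0.164 and 0.241). Camk1, a cytosolic kinase activated by CAMKK2, was 36.9, 50.4, 47.2, 31 and 37.8 CPM in controls, 85.5, 73.9, 71.8 and 56.3 CPM after SCL and 72.5, 56.8, 59.7 and 60.9 CPM after ECL. The groups did not overlap, and Camk1 rose by 0.82 ± 0.18 (SE, edgeR adjusted p = 0.00706) and 0.63 ± 0.17 (edgeR adjusted p = 0.0129) on the log2 scale, alone among 6 further CaM kinase genes. The exons of Camk1 overlap those of Ogg1 on the opposite strand over 3.9% of their bases, and the counting did not use strand.

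Of 8 other calcineurin subunits, regulators and anchors, 7 were tested, and 1 was lower in each comparison. Rcan2, a binding regulator of calcineurin, fell by 0.45 ± 0.13 (SE, edgeR adjusted p = 0.0266) on the log2 scale after SCL and was at -0.33 ± 0.15 (edgeR adjusted p = 0.125) after ECL. Rcan1, whose expression is itself induced by calcineurin, was at -0.30 ± 0.14 (edgeR adjusted p = 0.143) after SCL and fell by 0.53 ± 0.18 (edgeR adjusted p = 0.0371) after ECL. ECL and SCL did not differ at an adjusted p under 0.05 for either gene (edgeR adjusted p = 0.904 for Rcan2 and 0.849 for Rcan1). Rcan2 lost its SCL call in 8 of 19 alternative settings, among them without control 5 or SCL replicates 1 or 4 (edgeR adjusted p up to 0.373 over all settings). Rcan1 lost its ECL call in 10 of 19, among them without controls 1, 2 or 3 or ECL replicates 1, 2 or 4 (up to 0.193).

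Of 12 nuclear targets, 10 were tested. Mef2d, a transcription factor activated by calcineurin, was 3.39 to 8.16 CPM in controls, 9.96 to 25.7 CPM after SCL and 21.5 to 27.9 CPM after ECL. It rose by 1.71 ± 0.32 (SE, edgeR adjusted p = 0.00396) and 2.15 ± 0.25 (edgeR adjusted p = 0.000123) on the log2 scale, without overlap between groups. With 62 to 155 counts in the controls, Mef2d reached the mean count minimum of 150 through the lesioned libraries, where it was high, so that only a difference could bring it into the test. Its exons also overlap those of 1700113A16Rik on the opposite strand over 8.9% of their bases, in counts made without strand. Mef2a, of the same family, fell by 0.41 ± 0.14 (edgeR adjusted p = 0.0356) after ECL and was at -0.38 ± 0.14 (edgeR adjusted p = 0.0642) after SCL. Mef2c was at -0.21 and -0.02 and the kinase target Creb1 at -0.15 and -0.25, none past the threshold. The ECL call of Mef2a was lost in 12 of 19 alternative settings, among them without controls 4 or 5 or ECL replicates 1, 3 or 4 (edgeR adjusted p up to 0.405).

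Of 10 synaptic substrates and binding partners, 8 were tested, and 5 passed in each comparison. In the SCL cultures 4 of these were lower and 1 was higher, and in the ECL cultures 2 were lower and 3 higher. Dnm1, the dynamin that calcineurin dephosphorylates in vesicle endocytosis, fell by 0.88 ± 0.15 (SE, edgeR adjusted p = 0.00297) and 0.74 ± 0.20 (edgeR adjusted p = 0.0137) on the log2 scale. Dlg4, the postsynaptic scaffold PSD-95, fell by 0.59 ± 0.15 (edgeR adjusted p = 0.0134) and 0.71 ± 0.21 (edgeR adjusted p = 0.0238). Ppp1r1a, a protein phosphatase 1 inhibitor that calcineurin inactivates, rose by 0.60 ± 0.16 (edgeR adjusted p = 0.0183) and 0.95 ± 0.16 (edgeR adjusted p = 0.000968). The others called were named after their values were seen. The receptor subunits Gria1 (-0.47) and Grin2b (-0.52) passed after SCL, and the vesicle protein gene Syn1 (0.86) and the spine scaffold gene Ppp1r9b (0.66) after ECL. Several of these calls depended on the setting. Dlg4 lost its call in 3 of 19 settings after SCL and 6 after ECL (edgeR adjusted p up to 0.192 and 0.0986), the latter also without control 3 or ECL replicates 1 or 2. The calls of Gria1 and Grin2b were each lost in 8 (up to 0.31 and 0.716), for both without control 3 or SCL replicates 2 or 4 and for Gria1 also without SCL replicate 3. That of Ppp1r9b was lost in 8 (up to 0.102), among them without controls 1, 2 or 4 or ECL replicates 2, 3 or 4, and that of Syn1 in 3 (up to 0.0641), among them without ECL replicate 4. Ppp1r1a lost its SCL call in 2 settings (up to 0.336), without SCL replicate 1 and with the length and GC offset, and Dnm1 its ECL call without ECL replicate 1 (0.051).

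Among 4 CAMKK2 substrates, Akt1, a growth factor signalling kinase, was the 1 gene that passed, at 0.83 ± 0.26 (SE, edgeR adjusted p = 0.0269) after ECL, and was at 0.62 ± 0.27 (edgeR adjusted p = 0.101) after SCL. The ECL call was lost in 6 of 19 settings (edgeR adjusted p up to 0.0731), namely with the replicate block, with sex as a term and without controls 4 or 5 or ECL replicates 3 or 4, and the SCL change passed in 3. Across these lists no tested gene was called between ECL and SCL.

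**Figure D5:**
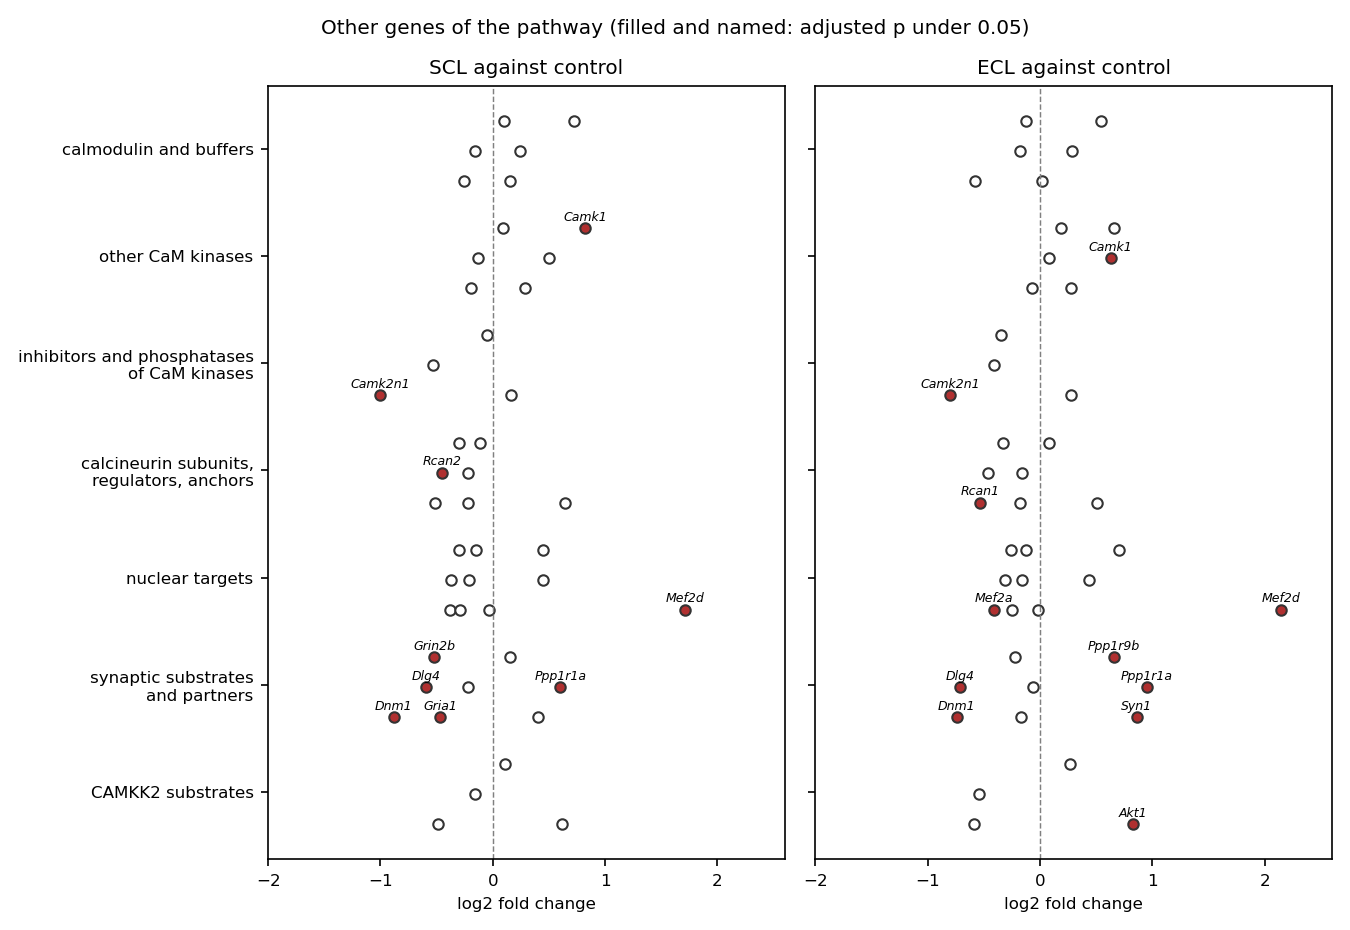
Log2 fold change (horizontal axis) of each tested gene of the 7 pathway lists (rows) after SCL and after ECL; filled points with names had an edgeR adjusted p under 0.05, and height within a row has no meaning. Camk2n1 lies at -1 and -0.80, Camk1 at 0.82 and 0.63, and Mef2d at 1.71 and 2.15.

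Of the 11155 genes tested in both lesion comparisons, the gene most like Ppp3ca across the 13 libraries was Grm5, a metabotropic glutamate receptor gene (Pearson r of log2 CPM 0.98), and of the other 8 genes it was Ppp3r1 (0.82). The closest to Ppp3r1 was Spats2 (0.96), to Ppp3cb H2az1 (0.94), to Camk2b Cacnb3 (0.94), a calcium channel subunit gene, and to Camk4 Cacna1c (0.84), the pore subunit of an L-type calcium channel. For Camk2a it was Cwc25 (0.94), for Camk2g Rasl10b (0.97), for Camkk2 Xylt2 (0.94) and for Camk2d Carnmt1 (0.83). The points share the groups and the depth of the libraries, and each gene is the highest of many, so these values are descriptions.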

How the data were processed

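The deposited files held raw counts per gene, which the authors made from paired 150-base reads of poly(A) RNA amplified from 1 CA1 region each, with cutadapt 3.5, STAR 2.7.8a (mm10/GRCm38) and featureCounts 2.0.1 without strand. Genes whose normalized counts averaged 150 or more, the study's minimum, were fitted per comparison with edgeR 4.0.16 (TMM over the genes tested, quasi-likelihood F test, R 4.3.3), adjusted by the Benjamini-Hochberg method over all genes tested, and called at 0.05. CPM used TMM over all 13 libraries, and lengths came from GENCODE M21. The fit was run on counts simulated from its own model with planted changes, which cannot check whether that model suits these data. Ratios were compared by two-sided exact permutation tests. The genes and lists were chosen with earlier results of these data known. Named were the 9 genes, the list genes with the smallest adjusted p among those called (up to 3 a list) and each gene's nearest neighbour by Pearson correlation. Beside this rule, the other called synaptic genes, the uncalled Calm2, Camk2n2, Mef2c and Creb1, and the marker Snap25 were named. A gene of the synaptic list is not reported here. Alternatives included DESeq2 1.42.0, other scalings and filters, a replicate block, sex as a term, a length and GC offset, halved counts and each library left out. Same-numbered libraries did not deviate together throughout (correlations of -0.175 to 0.542), so numbers were not taken as pairs. Between 63% and 74.3% of counts from 1 to 20 were even, for which counts were also divided by 2. Intervals from counts cover only the spread seen between libraries.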

Additional observations from a re-analysis of the deposited data

Results flagged for a closer look

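Over the 9 genes and 4 transcript ratios in 3 groups each, 4 of 39 sets of libraries held 1 library far from the rest by Dixon's test. In independent sets chance alone sets apart about 1 in 20. These sets share libraries, and the ratios share genes, so their count cannot be read as an excess over chance. Camk2a was at 202 CPM in SCL 3, against 111 to 126 CPM in the other SCL libraries. In ECL 3, Camk2b was at 351 CPM against 196 to 222 CPM, and Camkk2 at 43.9 CPM against 19.9 to 23.9 CPM. Ppp3r1 was at 450 CPM in SCL 1, against 363 to 373 CPM in the others.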

How the results depend on the processing

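Under 19 alternatives no called change of the 9 genes or the named list genes turned its direction. Ppp3ca stayed called after SCL in all 19 (-0.91 to -0.62, highest edgeR adjusted p 0.0245), and after ECL in 16 (-0.73 to -0.44); it was lost without ECL replicate 4, without a filter (edgeR adjusted p = 0.0707), and with scaling over all symbols (0.0564), which moved the median change over all genes to 0.21 (SCL) and 0.18 (ECL), and the share of higher calls to 80.8% and 77.8% from 52.8% and 54.8% (64% and 62.8% with DESeq2 size factors). Ppp3r1 lost its call in 10 of 19 settings after SCL (-0.60 to -0.25) and 11 after ECL (-0.53 to -0.25). Camk2n1 and Camk1 kept theirs in all 19. For SCL, 1 of the 9 genes was called with DESeq2 size factors, scaling over all symbols or filterByExpr, 4 with the length and GC offset (Camk4 and Ppp3cb added), 2 without a filter (Camk2g in place of Ppp3r1), and 1 to 2 with a library left out. For ECL it was 1 with DESeq2 size factors, without a filter (Camk2a), with filterByExpr or with sex as a term, 0 with scaling over all symbols, and 0 to 2 with a library left out. For ECL against SCL it was 1 without a filter (Camk2a). Of all genes, 5390 (SCL) and 8034 (ECL) were called without a filter, among 48069 and 47784 tested. Scaling then also ran over all symbols, and the median change over the genes tested was -0.4 (SCL) and -0.49 (ECL). With a library left out, 1679 to 2797 were called for SCL, the lowest without SCL replicate 3. For ECL against SCL, 217 were called without a filter, 62 by DESeq2, 1 in a fit of all 13 libraries, 1 with sex as a term, 54 without SCL replicate 3 and 2 without ECL replicate 4. With the replicate block, 3 of the 9 genes were called after SCL (Camkk2 added), 2 after ECL and 0 between lesions; the libraries share only a number. On the scale of neuronal markers, chosen after seeing the data, Ppp3cb was higher by 0.29 and 0.27 (exact permutation p = 0.0476 and 0.0317, unadjusted). The causes of these shifts were not tested. Camkk2 had the widest error of the 9 genes against control (SE 0.25 and 0.28).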
